A study of Mus musculus with 4 samples.

Results

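The subject here is the chromatin around Bcl11b and Satb1, 2 of the 21951 protein-coding genes in GENCODE mouse release 21. Both genes lie on the minus strand of build mm10. Bcl11b (ENSMUSG00000048251.15) spans chr12:107910403-108003602, or 93.2 kb, and Satb1 (ENSMUSG00000023927.15) spans chr17:51736187-51833290, or 97.1 kb. Each region was defined as the gene body with 1 Mb downstream and 100 kb upstream, which gave chr12:106910403-108103602 for Bcl11b and chr17:50736187-51933290 for Satb1. Overlapping peaks of the libraries were merged into sites, and a site called in at least 3 of 4 libraries is named a consensus site. The regions held 141 of 86936 merged sites and 63 of 41228 consensus sites. The assay was DNase-seq, which sequences the ends that DNase I leaves where chromatin is open, and the cells were naive resting CD8 alpha-beta T cells. They came from virgin female mice of the strain B6CASTF1/J, the first-generation cross of C57BL/6J and CAST/EiJ, at 2 months of age. The 4 libraries are biological replicates 1 to 4 of this single group, so no treatment or genotype was compared, and comparisons were made between regions within each library.

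BCL11B is a zinc-finger transcription factor that is switched on when thymic progenitors commit to the T cell lineage, and it works in part through the NuRD corepressor complex. In mouse T cell progenitors, its activation is known to depend on an enhancer far downstream of the gene. SATB1 binds AT-rich DNA and organises chromatin into loops in thymocytes, where it is needed for the normal expression of lineage genes.

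The libraries were of unequal depth. Replicates 1, 2, 3 and 4 had 69413, 70552, 51121 and 20647 peaks in the lists used, and 109, 62.9, 91.5 and 24.3 M tags by the steps between their peak heights. Replicates 3 and 4 also stood apart in the marker lists. Of 12 T cell marker promoters, 12, 12, 11 and 5 carried a peak in replicates 1, 2, 3 and 4, with summed relative heights of 10.5, 8.68, 7.35 and 3.98. Of 11 B cell marker promoters, 8, 7, 9 and 7 carried a peak, with summed relative heights of 2.18, 2.75, 4.71 and 5.58. The Cd8a promoter, a defining marker of the labelled cell type, reached 0.498 and 0.366 in replicates 1 and 2 and was not called in replicates 3 and 4. The Cd8b1 promoter, for the partner chain of the same coreceptor, had a peak in all 4 libraries. The promoter of Cd4, the defining marker of helper T cells, lacked a peak throughout. Zbtb7b, the other gene of the helper list and the factor that directs helper commitment, had 0.251, 0.358, 0.746 and 1.12 in replicates 1, 2, 3 and 4. Of the other lists, the 8 myeloid promoters were called 7, 7, 7 and 3 times, with summed relative heights of 2.54, 1.95, 3.29 and 2.96. The 4 NK cell promoters were called 2, 2, 2 and 0 times and the 4 erythroid promoters 2, 2, 0 and 0 times. The part of cell composition and of depth in the results below was not tested, and in bulk chromatin fewer cells of a type cannot be told apart from less open chromatin per cell.

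The Bcl11b promoter was open in replicates 1 to 3 and had no peak in replicate 4, and the Satb1 promoter was open in all 4 libraries. Heights are given relative to the median height of the same library at sites called in all 4 libraries, so that 1 is the height of a middling shared site. The relative height of the Bcl11b promoter was 1.22, 1.57 and 0.911 in replicates 1, 2 and 3 and 0 in replicate 4 (0.925 ± 0.672, SD, n = 4). The relative height of the Satb1 promoter was 1.66, 1.74, 1.5 and 1.93 in replicates 1, 2, 3 and 4 (1.71 ± 0.18, SD, n = 4). In each library the Bcl11b promoter stood below the Satb1 promoter. The difference, Bcl11b minus Satb1, averaged -0.781 ± 0.785 (SD, n = 4) and had a p of 0.125 by an exact two-sided sign-flip permutation, which is the smallest p that 4 libraries can give. For background, a promoter peak was called for 58.3%, 58.3%, 56.7% and 46.1% of coding genes in replicates 1, 2, 3 and 4, and for 45.8% of them in all 4 libraries. Among the called promoters of each library, Bcl11b stood at percentiles 51.4, 62.6 and 36.2 in replicates 1, 2 and 3. Satb1 stood at percentiles 65.3, 67.8, 55.5 and 63.9 in replicates 1, 2, 3 and 4.

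The peaks that mark these promoters lie at and just upstream of the first bases of the gene models. At Bcl11b, a 300 bp site at chr12:108003981-108004280 was centred 0.529 kb upstream of the GENCODE start, and the GENCODE start itself lay inside a peak in replicate 2 alone. The RefSeq model of Bcl11b reaches 543 bp farther upstream, into this site. At Satb1, a 480 bp site at chr17:51832941-51833420 was centred 0.109 kb downstream of the start, where the GENCODE and RefSeq models begin at the same base. Their sequences upstream of both gene models are shown from RefSeq GRCm38.p6, on the gene's own strand, and they hold part of the promoter footprints. Further footprints of both sites, at Satb1 including one that reached all 4 libraries, lie inside the gene models and are not shown. Capitals mark bases inside a deposited footprint, a short stretch protected from cutting, in at least 2 libraries. The first is chr12:108004146-108004280 and the other is chr17:51833291-51833420, both on the minus strand.
Bcl11b promoter: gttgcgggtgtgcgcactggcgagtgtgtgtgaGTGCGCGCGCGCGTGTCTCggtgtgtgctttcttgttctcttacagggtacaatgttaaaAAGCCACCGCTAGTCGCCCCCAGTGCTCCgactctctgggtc
Satb1 promoter: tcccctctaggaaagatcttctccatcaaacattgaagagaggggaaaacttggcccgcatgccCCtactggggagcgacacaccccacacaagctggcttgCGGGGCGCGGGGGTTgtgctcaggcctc

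The Bcl11b stretch carries 48 footprint bases, in blocks of 29 and 19 bases that reached 3 libraries. The full Bcl11b promoter site held 4, 4 and 6 footprints in replicates 1, 2 and 3 and 0 in replicate 4. It was covered by intervals with a significant cut rate over 300 of 300 bp in replicates 1, 2 and 3 and over 0 bp in replicate 4. All 3 kinds of list, peaks, footprints and cut-rate intervals, were thus empty at the Bcl11b promoter in replicate 4. The lists describe the same library and are not independent. Of all consensus sites without a peak in replicate 4, only 4.15% held a significant cut-rate base. The Satb1 site held 6, 6, 4 and 2 footprints in replicates 1, 2, 3 and 4, and its 480 bp lay wholly inside cut-rate intervals in every library.

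**Figure D1:**
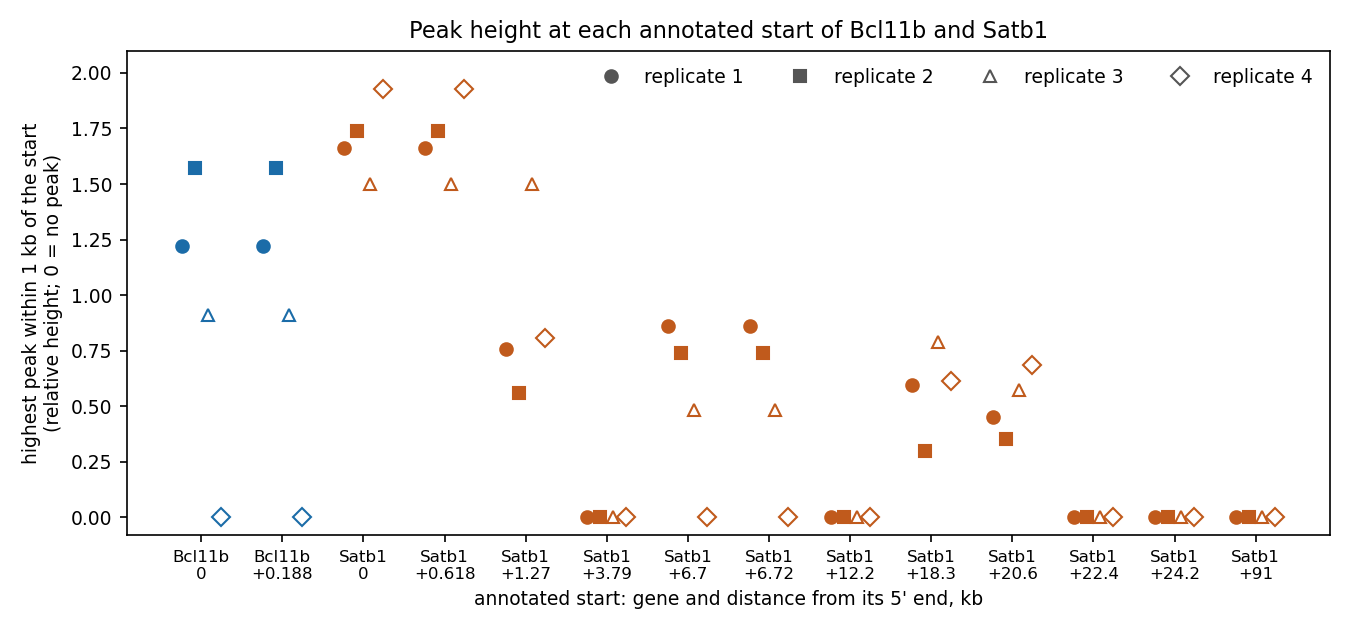
Relative height of the highest peak within 1 kb of each annotated start (vertical axis, 1 is the median of shared sites, 0 is no peak) for the starts of Bcl11b (blue) and Satb1 (orange), ordered by distance from the gene's 5′ end in kb, with 1 symbol per library. Both Bcl11b starts share the same highest peak, which is missing in replicate 4, and the first 2 Satb1 starts share a peak of 1.5 to 1.93 in all 4 libraries.

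GENCODE lists 3 Bcl11b transcripts from 2 starts and 14 Satb1 transcripts from 12 starts, and the Satb1 starts were not open alike. The Bcl11b starts lie 0.188 kb apart and share the same highest peak. Low peaks called in 1 library each stood at the first start in replicate 2, with a height of 0.194, and 0.502 kb downstream in replicate 1, with 0.209. At Satb1, the start at 1.27 kb lay within 1 kb of peaks with heights of 0.758, 0.558, 1.5 and 0.807 in replicates 1, 2, 3 and 4. Starts at 6.7 and 6.72 kb had heights of 0.862, 0.741 and 0.481 in replicates 1, 2 and 3 and none in replicate 4. The start at 18.3 kb had 0.596, 0.299, 0.79 and 0.614 in replicates 1, 2, 3 and 4. Around the start at 20.6 kb the heights were 0.451, 0.352, 0.574 and 0.684, and the start itself lay inside a peak in replicates 3 and 4 but not in replicates 1 and 2. Replicates 3 and 4 are the libraries with the higher B cell marker sums, and the part of cell composition in this was not tested. The starts at 3.79, 12.2, 22.4, 24.2 and 91 kb had no peak within 1 kb in any library.

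Across its whole region, Bcl11b had 41 consensus sites among 85 merged sites, most of them far from any gene start. Of the consensus sites, 27 lay downstream of the gene, 11 in its introns, 2 upstream and 1 at the promoter. The count of 41 sits beside a median of 29 in the equally built regions of all coding genes (percentile 64.6). The 40 consensus sites more than 1 kb from any coding start sit beside a median of 16 (percentile 93). These regions overlap between neighbouring genes, so the percentiles are descriptions. The only other coding gene that starts in the Bcl11b region, 3110018I06Rik at 515 kb downstream, lacked a promoter peak throughout.

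**Figure D2:**
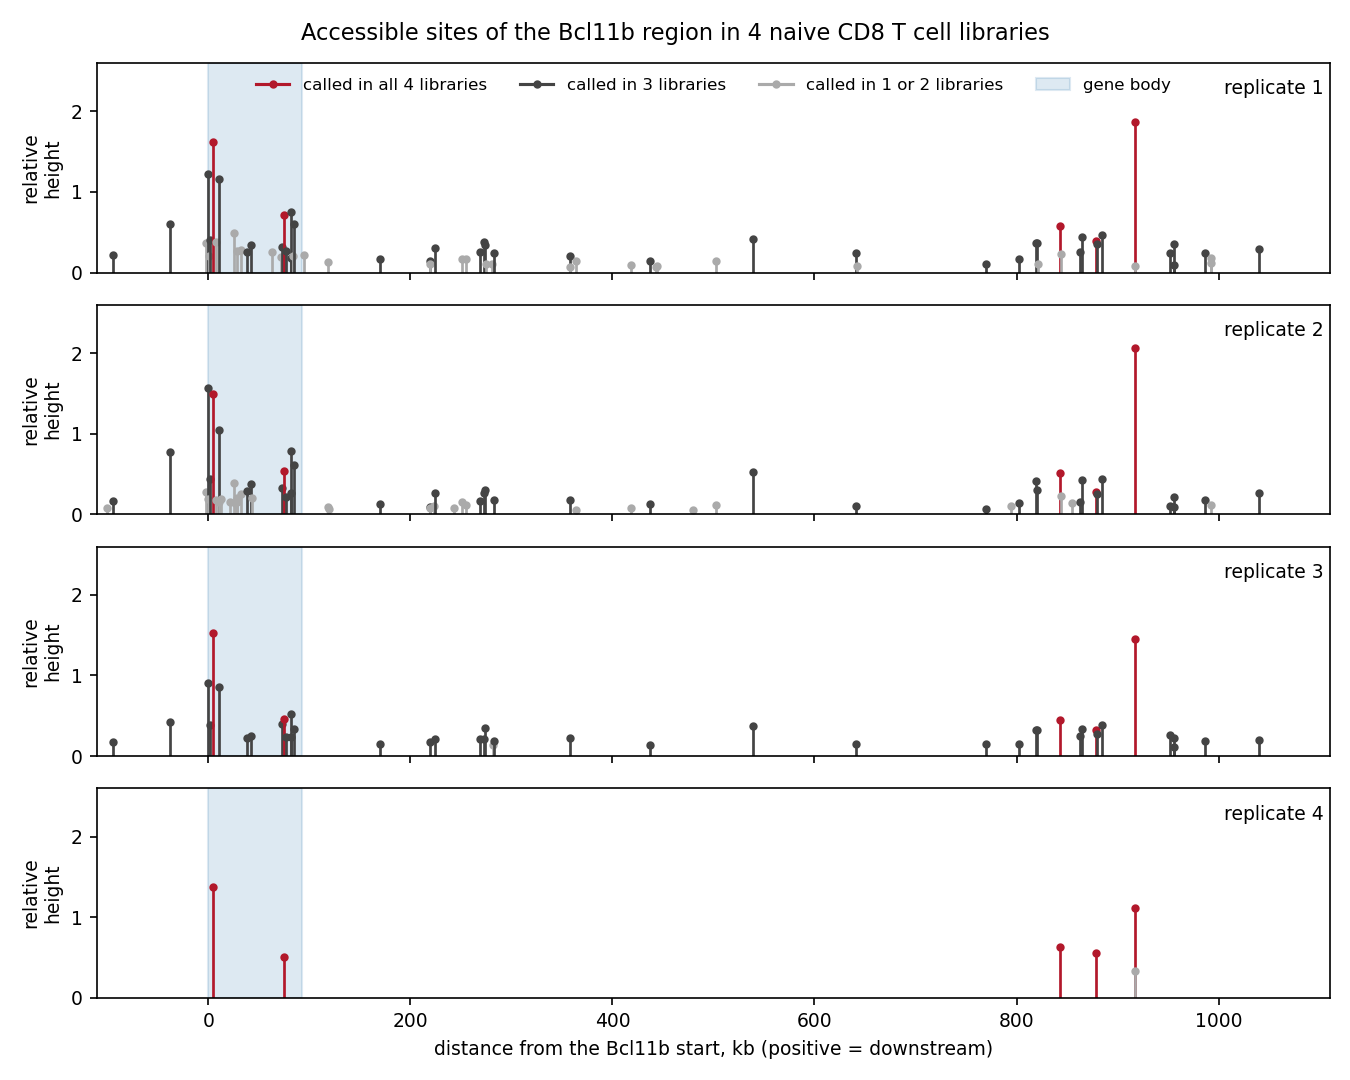
Relative height of each called site (vertical axis) against its distance from the Bcl11b start in kb (horizontal axis, positive is downstream), with 1 panel per library. Red sites were called in all 4 libraries, black in 3, grey in 1 or 2, and the shaded band is the gene body. Sites gather in the gene body and again between 800 and 1000 kb downstream, and replicate 4 keeps few of them.

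The downstream sites were unevenly spread. In segments chosen after the sites had been seen, the first 100 kb from the start held 11 consensus sites, the next 700 kb held 12, and the stretch from 800 to 1000 kb held 14. That is 11 consensus sites per 100 kb in the first 100 kb, 1.71 between 100 and 800 kb and 7 between 800 and 1000 kb. Cut-rate intervals also covered more of the far segment, from 800 to 1000 kb, than of the segment between 100 and 800 kb. They covered 41.9, 33.2, 26.7 and 3.31 bases per kb of the far segment in replicates 1, 2, 3 and 4. They covered 9.33, 8.03, 4.28 and 0 bases per kb of the segment between 100 and 800 kb in the same libraries. In the first 100 kb they covered 48.7, 51.9, 25.4 and 2.81 bases per kb. This was above the far segment in replicates 1 and 2 and below it in replicates 3 and 4. Of the 5 Bcl11b sites called in all 4 libraries, 3 lay in the far segment, at +843, +879 and +917 kb, and the others lay in introns at +4.66 and +75.4 kb. The farthest consensus site was at +1040 kb, with heights of 0.291, 0.259 and 0.203 in replicates 1, 2 and 3 and none in replicate 4.

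By its mean over the libraries, the highest site of the Bcl11b region outside the promoter was 917 kb downstream of the start. Its relative height was 1.87, 2.06, 1.45 and 1.12 in replicates 1, 2, 3 and 4 (1.62 ± 0.419, SD, n = 4). In each of those libraries it stood above the Bcl11b promoter. Next was the intronic site at +4.66 kb, with 1.62, 1.49, 1.53 and 1.37 (1.5 ± 0.103, SD, n = 4), the most even of the named Bcl11b sites relative to its mean. It was above the site at +917 kb in replicates 3 and 4 and below it in replicates 1 and 2. The intronic site at +10.4 kb had 1.16, 1.05 and 0.863 in replicates 1, 2 and 3 and no peak in replicate 4. A site 38.2 kb upstream had 0.6, 0.773 and 0.423 in replicates 1, 2 and 3 and none in replicate 4. A site 539 kb downstream had 0.411, 0.526 and 0.368 in replicates 1, 2 and 3 and none in replicate 4.

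Of these, the sites at +917, +4.66, -38.2 and +539 kb are printed. They are the Bcl11b consensus sites whose central 100 bp match the motif of CTCF, with at most 1 mismatch, or of REST, both described below. In that order they are chr12:107086321-107086520, chr12:107998841-107999040, chr12:108041661-108041860 and chr12:107464841-107465020 in GRCm38, on the minus strand, with footprint bases of at least 2 libraries in capitals.
Bcl11b +917 kb: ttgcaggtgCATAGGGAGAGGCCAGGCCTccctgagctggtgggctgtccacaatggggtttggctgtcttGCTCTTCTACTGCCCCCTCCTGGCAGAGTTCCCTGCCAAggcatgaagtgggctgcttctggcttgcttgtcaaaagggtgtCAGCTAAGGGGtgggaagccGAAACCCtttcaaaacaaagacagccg
Bcl11b +4.66 kb: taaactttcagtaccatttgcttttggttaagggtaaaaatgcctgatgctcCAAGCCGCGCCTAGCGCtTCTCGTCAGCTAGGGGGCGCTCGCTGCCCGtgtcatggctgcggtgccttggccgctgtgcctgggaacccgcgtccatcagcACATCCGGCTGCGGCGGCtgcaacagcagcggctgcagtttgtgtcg
Bcl11b -38.2 kb: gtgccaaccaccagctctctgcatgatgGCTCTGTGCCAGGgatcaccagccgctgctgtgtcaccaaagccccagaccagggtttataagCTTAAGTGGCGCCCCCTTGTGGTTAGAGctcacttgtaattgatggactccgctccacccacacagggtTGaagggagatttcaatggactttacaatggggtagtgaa
Bcl11b +539 kb: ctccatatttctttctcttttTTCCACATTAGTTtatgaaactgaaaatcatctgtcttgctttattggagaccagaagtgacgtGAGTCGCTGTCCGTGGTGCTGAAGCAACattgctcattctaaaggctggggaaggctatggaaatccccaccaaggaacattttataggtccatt

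At +917 kb a block of 39 footprint bases, part of it protected in all 4 libraries, held a match to the 12-letter consensus of CTCF, the insulator protein that anchors chromatin loops, with 1 mismatch and on the strand opposite to the gene. At +4.66 kb a block of 30 footprint bases, also reaching all 4 libraries, held a CTCF match with 1 mismatch on the strand of the gene. At -38.2 kb a block of 28 footprint bases that reached 3 libraries held an exact CTCF match on the opposite strand. The RUNX motif TGTGGTT overlaps it on the gene's strand, so the letters cannot assign the footprint to either family. In each of these cases all 12 letters of the CTCF match lay within capitals. At +539 kb a block of 28 footprint bases that reached 3 libraries held CAGCACC followed, 2 bases on, by GGACAG, on the opposite strand. This is the motif of REST, a repressor of neuronal genes, and it was searched after that footprint had been read. The window of the motif counts found it in 1 of 41 Bcl11b consensus sites, 0 of 22 Satb1 consensus sites and 41 of 41165 other consensus sites (0.0996%).

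The remaining high Bcl11b sites lay near the 3′ end of the gene and in the far segment. At +75.4 kb, in an intron, the heights were 0.713, 0.537, 0.464 and 0.509 in replicates 1, 2, 3 and 4. The neighbouring intronic sites at +82.2 and +84.6 kb had 0.749, 0.787 and 0.526 and 0.607, 0.606 and 0.333 in replicates 1, 2 and 3, and neither had a peak in replicate 4. The site at +843 kb had 0.573, 0.512, 0.45 and 0.632 in replicates 1, 2, 3 and 4 and lay at the start of the long intergenic RNA gene Gm16084. The site at +879 kb had 0.389, 0.282, 0.32 and 0.561. Both of these were highest in replicate 4, unlike the sites at +917, +4.66 and +75.4 kb. Replicate 4 called mainly higher sites. Away from coding starts, the median height of other called consensus sites was 0.358, 0.33, 0.309 and 0.667 in replicates 1, 2, 3 and 4. A site that is low elsewhere thus enters replicate 4 mostly when its value there is high. Of the 11 genes of other types than protein-coding that start in the Bcl11b region, 4 had a peak within 1 kb of the start in 3 or 4 libraries, against 10.2% of all such genes, namely Gm15208, 4930465M20Rik, Gm2800 and Gm16084.

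The Satb1 region had 22 consensus sites among 56 merged sites and a different layout. Of the consensus sites, 6 lay at Satb1 promoters, 6 upstream, 3 in introns and 4 downstream, with 2 more at the promoter of Tbc1d5 and 1 inside Tbc1d5. Tbc1d5, which encodes a RAB GTPase-activating protein, is the 1 other coding gene that starts in the region, 654 kb downstream. The count of 22 sits beside the median of 29 over all coding genes (percentile 38.6), and the 14 sites away from coding starts sit beside the median of 16 (percentile 44). The stretch from 800 to 1000 kb held 14 consensus sites at Bcl11b and 0 at Satb1. It was chosen after the Bcl11b sites had been seen, and at Satb1 it lies within Tbc1d5.

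**Figure D3:**
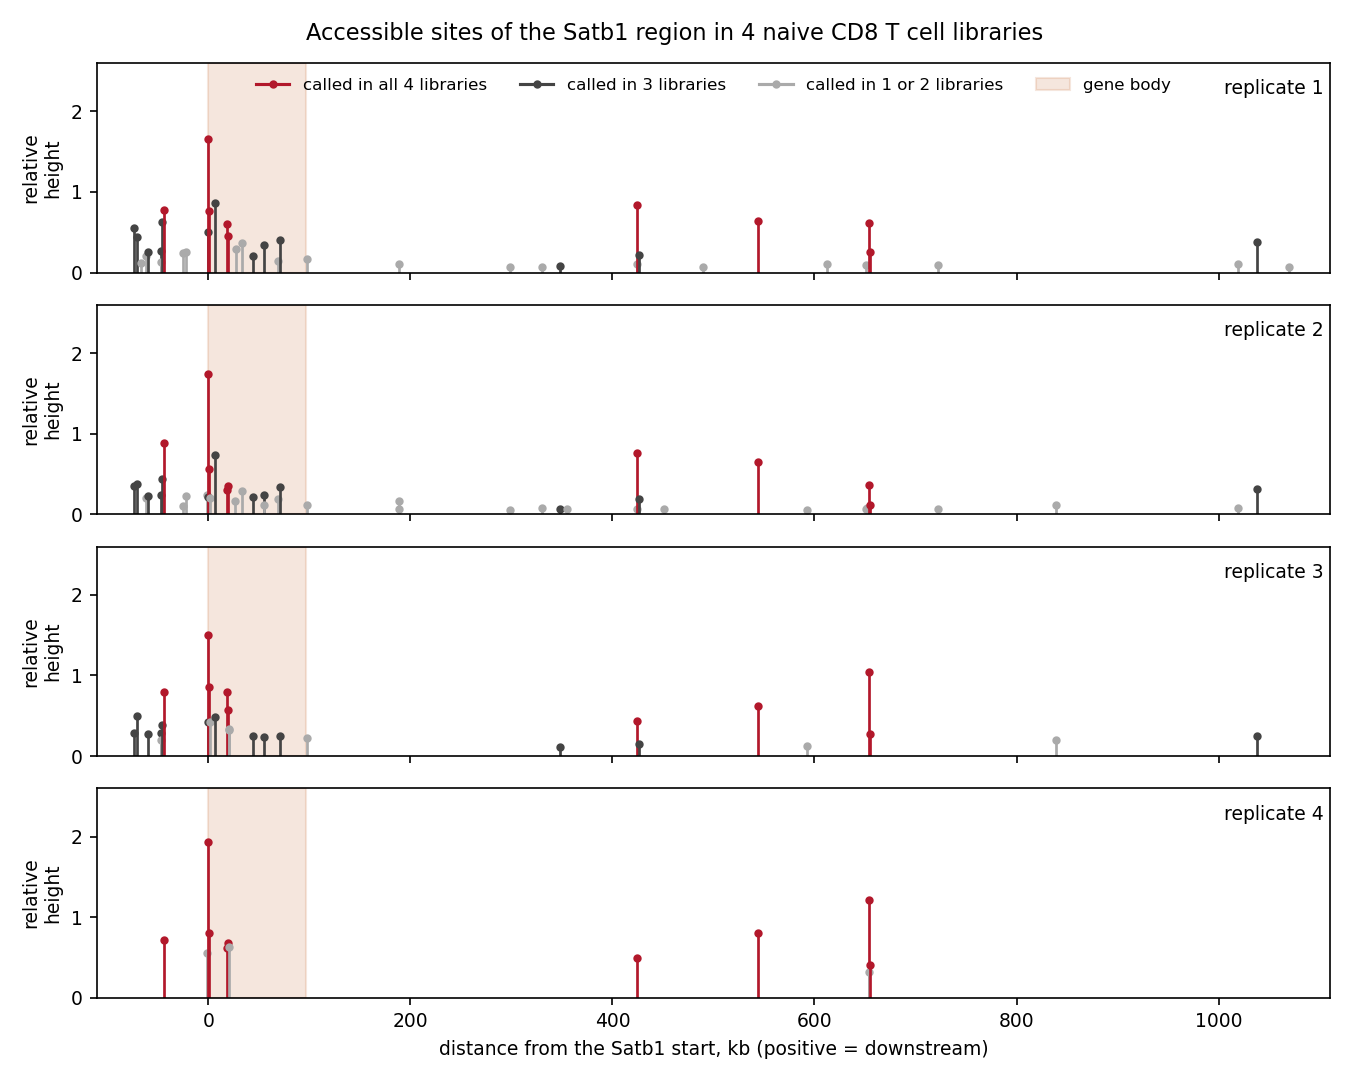
Relative height of each called site (vertical axis) against its distance from the Satb1 start in kb (horizontal axis, positive is downstream), with 1 panel per library and the same colours and height scale as for Bcl11b. The highest site is at the promoter in every library, and sites near the start and upstream of it make up most of the rest.

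The highest Satb1 sites outside the promoters of either gene were called in all 4 libraries. The site 43.4 kb upstream had 0.78, 0.89, 0.797 and 0.719 in replicates 1, 2, 3 and 4 (0.797 ± 0.0704, SD, n = 4). The site 544 kb downstream had 0.644, 0.655, 0.622 and 0.807 (0.682 ± 0.0844, SD, n = 4). The site 425 kb downstream had 0.842, 0.76, 0.44 and 0.491 (0.633 ± 0.198, SD, n = 4), so that replicates 1 and 2 were above replicates 3 and 4 there. The Tbc1d5 promoter site ran the other way, with 0.618, 0.362, 1.04 and 1.21 in replicates 1, 2, 3 and 4. The upstream sites at -46.1, -70.8 and -73.2 kb and the intronic site at +70.6 kb were called in replicates 1, 2 and 3, with heights between 0.244 and 0.633, and in none of these cases in replicate 4. The farthest consensus site, at +1038 kb inside Tbc1d5, had 0.376, 0.32 and 0.247 in replicates 1, 2 and 3.

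The 3 Satb1 sites called in all 4 libraries outside promoters are chr17:51876521-51876780 at -43.4 kb, chr17:51288881-51289060 at +544 kb and the central 200 bases of the site at +425 kb, chr17:51408441-51408640. They are shown on the minus strand, with footprint bases of at least 2 libraries in capitals.
Satb1 -43.4 kb: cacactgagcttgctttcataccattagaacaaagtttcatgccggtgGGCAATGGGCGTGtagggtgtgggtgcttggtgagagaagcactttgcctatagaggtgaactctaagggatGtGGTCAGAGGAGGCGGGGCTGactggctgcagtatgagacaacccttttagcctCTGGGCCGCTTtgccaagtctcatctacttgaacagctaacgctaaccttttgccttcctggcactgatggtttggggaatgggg
Satb1 +544 kb: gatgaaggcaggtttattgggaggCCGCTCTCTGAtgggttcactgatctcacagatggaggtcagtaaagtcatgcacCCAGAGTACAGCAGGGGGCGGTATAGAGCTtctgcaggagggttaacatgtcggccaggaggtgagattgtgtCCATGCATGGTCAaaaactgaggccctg
Satb1 +425 kb: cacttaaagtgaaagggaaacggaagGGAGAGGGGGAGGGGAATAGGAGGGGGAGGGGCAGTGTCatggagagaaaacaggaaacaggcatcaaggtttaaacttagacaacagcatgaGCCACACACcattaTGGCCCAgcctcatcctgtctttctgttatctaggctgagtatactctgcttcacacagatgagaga

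At -43.4 kb the reverse strand holds TGACCA, the motif of the BCL11 family, with 5 of its 6 letters in capitals. At +544 kb a CTCF match with 1 mismatch lies on the strand of the gene, with all 12 letters in capitals, and TGACCA occurs again on the reverse strand with 6 of 6 letters in capitals. At +425 kb the longest stretch of capitals is a purine-rich run of mostly G and A, and shorter stretches of other make-up follow it. No searched motif lies in any of these capitals. Matches of this kind describe the letters and do not show which protein was bound.

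Replicate 4 retained few Bcl11b sites. Of the 41 Bcl11b consensus sites, 41, 41, 41 and 5 were called in replicates 1, 2, 3 and 4, and 5 (12.2%) in all 4 libraries. Of the 22 Satb1 consensus sites, 22, 22, 22 and 9 were called, and 9 (40.9%) in all 4 libraries. Over all consensus sites the shares called were 99.7%, 99.7%, 99.3% and 43.8% in replicates 1, 2, 3 and 4, and 42.6% in all 4 libraries. Away from coding starts, where 40 of the Bcl11b and 14 of the Satb1 consensus sites lie, 27.4% of all consensus sites were called in replicate 4. There, 5 of 40 Bcl11b sites (12.5%) and 3 of 14 Satb1 sites (21.4%) were called, so that the Bcl11b share was below both backgrounds and the Satb1 share was within a site or so of each. These backgrounds were not matched on height. In replicates 1, 2 and 3 the median heights there were 0.328, 0.268 and 0.254 for Bcl11b sites and 0.388, 0.331 and 0.285 for Satb1 sites. Other sites away from coding starts had medians of 0.358, 0.33 and 0.309. Of the sites without a peak in replicate 4, a significant cut-rate base was present at 1 of 36 in the Bcl11b region (2.78%) and 1 of 13 in the Satb1 region (7.69%), against 4.15% over all such consensus sites.

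The sites that replicate 4 kept were then set beside other consensus sites of like height, within 10% of the site's mean height in replicates 1 to 3. For the Bcl11b promoter, 1675 of 1809 such sites (92.6%) had a peak in replicate 4, while the promoter had none. For the intronic site at +10.4 kb, 1748 of 2054 such sites (85.1%) had a peak, while that site had none. The comparison sets were matched on height alone and mix sites near coding starts with sites away from them. Replicate 4 called 43.8% of all consensus sites but 27.4% of those away from coding starts. The shares given for intronic and other distal sites may therefore be too high. The sites at +917 and +4.66 kb were called, as were 99.6% and 96.9% of sites of their heights. The sites at +75.4, +843 and +879 kb were called too, although 49.4%, 41.8% and 21.6% of sites of their heights were. In the Satb1 region, the called sites had shares between 10.5% at +655 kb and 98.2% at the promoter. Those without a peak in replicate 4 had shares of at most 61.1%, reached at +6.63 kb. For the remaining Bcl11b sites without a peak in replicate 4, the shares ran between 6.53% at +437 kb and 60.4% at +82.2 kb. Of the 13 listed T lineage commitment factors, 10 had a promoter peak in replicate 4, against 46.1% of all coding genes. The listed factors without one were Tcf7, Lef1 and Gata3. Lef1, which works with TCF7, had 0.929, 0.743 and 0.907 in replicates 1, 2 and 3, and Gata3, needed for T cell commitment, had 0.871, 0.596 and 1.14. The others differed. Cbfb, Ets1, Myb, Tcf12 and Ikzf1 were highest in replicate 4, Runx1, Runx3 and Tcf3 were lowest there, and Notch1 and Gfi1 lay between. Cbfb, for the partner of the RUNX factors, had 2.77 in replicate 4, against 2.17, 2.73 and 2.05 in replicates 1, 2 and 3. Runx3 had 1.4 in replicate 4, against 1.95, 2.02 and 1.49.

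**Figure D4:**
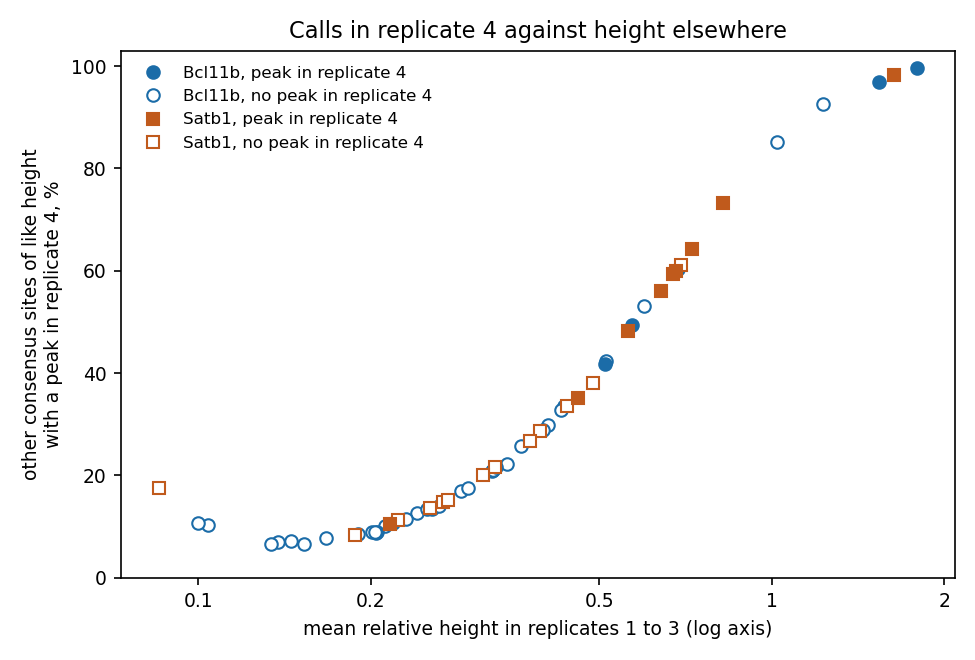
Share of other consensus sites of like height that had a peak in replicate 4, in percent (vertical axis), against the mean relative height of each Bcl11b (blue circles) or Satb1 (orange squares) consensus site in replicates 1 to 3 (horizontal log axis). Filled symbols had a peak in replicate 4, and the open circles at 85.1% and 92.6% are the Bcl11b site at +10.4 kb and the Bcl11b promoter.

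Peaks were denser in the Bcl11b region than in the Satb1 region in replicates 1, 2 and 3 and sparser in replicate 4. The Bcl11b region had 5.87, 5.87, 3.86 and 0.503 peaks per 100 kb in replicates 1, 2, 3 and 4. The Satb1 region had 3.59, 4.09, 2.67 and 1.25. The difference, Bcl11b minus Satb1, was 2.27, 1.77, 1.18 and -0.75 and averaged 1.12 ± 1.32 (SD, n = 4), with an exact sign-flip p of 0.25, which did not pass a threshold of 0.05. Taking an equal number of the highest peaks from every library turned the mean difference to -0.227, so the direction depends on this choice. It averaged 1.74 without replicate 4 and 0.735 without replicate 1. Beyond the consensus, the Bcl11b region held 14, 14, 1 and 1 sites called in replicate 1, 2, 3 or 4 alone, and the Satb1 region held 6, 8, 1 and 1.

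Cut-rate intervals were set against the rest of each region's chromosome. They covered 18.2, 16.5, 10.2 and 0.79 bases per kb of the Bcl11b region in replicates 1, 2, 3 and 4, against 9, 8.2, 6.95 and 2.32 on the rest of chromosome 12. The difference was above 0 in 3 of 4 libraries and averaged 4.82 ± 4.98 (SD, n = 4; exact sign-flip p = 0.25), or 3.18 and 1.82 when the deposited values had to be below 0.01 and 0.001. They covered 11.9, 10.9, 8.86 and 3.04 bases per kb of the Satb1 region, against 14.2, 12.9, 11.2 and 3.61 on the rest of chromosome 17. That difference was below 0 in 4 of 4 libraries and averaged -1.79 ± 0.828 (SD, n = 4; exact sign-flip p = 0.125), or -2.46 and -2.82 under those limits. Neither difference could pass 0.05 with 4 libraries.

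**Figure D5:**
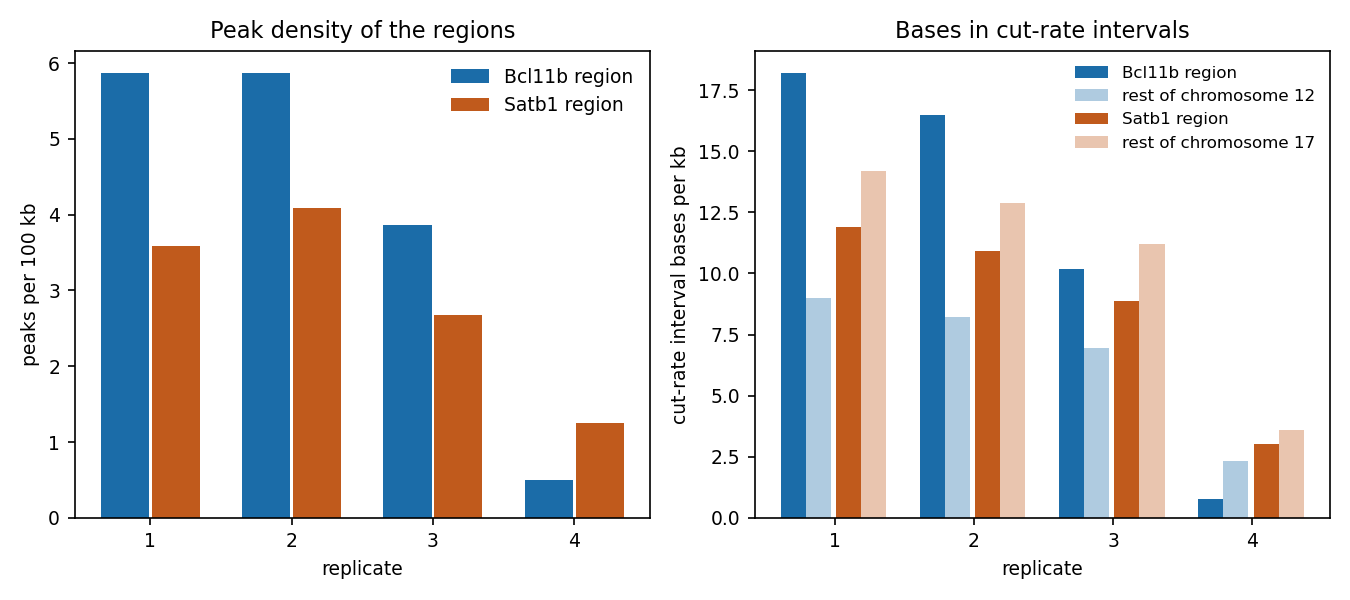
Left, peaks per 100 kb of the Bcl11b region (blue) and the Satb1 region (orange) in each library. Right, bases in cut-rate intervals per kb of each region (dark bars) beside the rest of its chromosome (pale bars). Bcl11b exceeds Satb1 and chromosome 12 in replicates 1, 2 and 3 and lies below both in replicate 4.

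Footprint density was below that of other peaks in 3 of 4 libraries for Bcl11b and in 4 of 4 for Satb1. Peaks of the Bcl11b region held 8.28, 8.04, 7.88 and 6.6 footprints per kb in replicates 1, 2, 3 and 4, against 10.4, 10.3, 10.3 and 5.81 in all other peaks. The mean difference was -1.49 ± 1.52 per kb (SD, n = 4; exact sign-flip p = 0.25), with -2.24 without replicate 4 and -2.7 with the shorter peak lists. Peaks of the Satb1 region held 9.45, 8.29, 8.55 and 1.99 per kb, against 10.3, 10.3, 10.3 and 5.81. The mean difference was -2.11 ± 1.23 per kb (SD, n = 4; exact sign-flip p = 0.125). The value of replicate 4 rests on 5 footprints in the peaks of each region.

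The central 100 bp of the consensus sites were searched for 12 motif families on both strands. CTCF matched exactly in 1 of 41 Bcl11b sites (2.44%) and 1 of 22 Satb1 sites (4.55%), against 8.6% of 41165 other consensus sites. With 1 mismatch allowed, 3 of 41 Bcl11b sites (7.32%) and 3 of 22 Satb1 sites (13.6%) matched, against 27.2% of the others. The Satb1 matches, at +55.2, +544 and +1038 kb, all lay on the strand of the gene. RUNX factors (TGTGGTT), which act with BCL11B in T cells, matched 3 Bcl11b sites (7.32%) and 0 Satb1 sites, against 3.82%. TCF7 and LEF1 (CTTTGAA or CTTTGAT), which open T cell enhancers, matched 0 sites of either region, against 2.84%. ETS factors (CCGGAAG or AGGAAGT) matched 3 Bcl11b sites (7.32%) and 3 Satb1 sites (13.6%), against 9.32%. E-boxes (CAGCTG or CACCTG) matched 8 Bcl11b sites (19.5%) and 3 Satb1 sites (13.6%), against 16.7%. The BCL11 motif TGACCA matched 0 Bcl11b sites and 1 Satb1 site, against 5.51%. The families of GATA factors (AGATAA), AP-1 (TGANTCA), MYB (AACTGNC or AACGGNC), STAT (TTCCNGGAA), KLF (GGGTGTG or GGGCGGG) and NFY (CCAAT) matched between 0 and 4 sites of either region. These backgrounds include sites at coding starts, whereas 40 of the Bcl11b and 14 of the Satb1 sites lie away from them. Among other consensus sites away from coding starts, CTCF matched exactly in 12.9%, RUNX in 5.42% and TCF7 and LEF1 in 3.7%. There, ETS matched 8.4%, E-boxes 19.8% and the BCL11 motif 7.01%. A single site is 2.44% of the Bcl11b sites and 4.55% of the Satb1 sites, so these shares are coarse.

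Among all coding genes, the promoters nearest to each member over the 4 libraries were ranked by the Euclidean distance between relative heights. The nearest to Bcl11b were Slc27a1 (distance 0.238), Samd9l (0.238) and Pik3cd (0.264), each with no peak in replicate 4. Pik3cd, for the lymphocyte PI3K catalytic subunit, had 1.14, 1.79, 0.804 and 0. Nearest to Satb1 were Pogz (0.0784), Arpc3 (0.127) and Dbr1 (0.129), with peaks in all 4 libraries. A missing peak counted as 0 in this distance, so the shared calls follow largely from the ranking and are no separate result. By peaks per library in the equally built region, the genes nearest to Bcl11b were Ccdc85c, Gm11213 and Tex48, and those nearest to Satb1 were Adprhl2, Tekt2 and Map7d1. Ccdc85c also lies on chromosome 12, with 71, 72, 43 and 9 peaks against 70, 70, 46 and 6 for Bcl11b. Gm11213 and Tex48, both on chromosome 4, had identical counts in every library, as did Adprhl2 and Tekt2. Equally built regions of neighbouring genes overlap and hold the same peaks in part. Likeness by this count may therefore come from shared windows, and the overlap of these regions was not examined.

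Promoter peaks were called for most of the listed genes that act with BCL11B or SATB1. Of all coding genes, 58.3%, 58.3%, 56.7% and 46.1% had a promoter peak in replicates 1, 2, 3 and 4. A peak in all 4 libraries was called for 45.8% of them, and the median of their mean relative heights was 0.219. Of 13 T lineage commitment factors, 13, 13, 12 and 10 were called at the promoter in replicates 1, 2, 3 and 4, and the median of their mean heights was 1. Ets1, for a T cell ETS factor, had 2.34, 2.61, 2.66 and 2.96, and Tcf7, for the factor that acts upstream of Bcl11b, had 0.349 and 0.301 in replicates 1 and 2 and no peak in replicates 3 and 4. Of 12 genes of NuRD and its corepressor partners, 12, 12, 12 and 11 had a peak, with a median of 1.63. Mta2 had 2.46, 2.49, 2.01 and 2.04, and Mta1 was the one not called in replicate 4. All 11 genes of the loop machinery, such as Ctcf and the cohesin gene Rad21, had a peak in all 4 libraries, with a median of 1.92.

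The listed genes that BCL11B and SATB1 act on had list medians close to that of all coding genes. Of 11 progenitor and innate lymphoid genes, on which BCL11B is known to act as a repressor or which are shut at commitment, 9, 10, 7 and 5 had a peak in replicates 1, 2, 3 and 4, with a median mean height of 0.253. Id2, for an inhibitor of E proteins, was high at 1.77, 1.67, 1.99 and 1.84, while Zbtb16, for the innate T cell factor PLZF, had 0.0971 in replicate 2 and no peak elsewhere. Of 10 lineage genes that SATB1 regulates in thymocytes, 7, 7, 5 and 4 had a peak, with a median of 0.249, and Rag1, Rag2 and Cd4 had none in any library. The shares over all coding genes were 58.3%, 58.3%, 56.7% and 46.1%. In replicates 1 and 2 both lists were called more often than that. In replicate 3 the progenitor and innate list was above the share and the SATB1 list below it, and in replicate 4 both were below. The lists are short and their counts were not tested, so no result about the lists is drawn. The Foxp3 promoter window, for the regulatory T cell factor, had 1.47, 2, 1.71 and 1.47. Bcl11a, the paralogue of Bcl11b, had 0.142 and 0.211 in replicates 1 and 2 and no peak in replicates 3 and 4.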

How the data were processed

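DNase-seq lists of the 4 libraries were used as deposited, on mm10 per the labels. The authors' peak value (column 7 of the longer of the 2 peak lists of each library) is a signal, the height of the peak scaled to depth. The deposited footprint and cut-rate values are read as a p-value or false discovery rate (0.01 for all footprints). The aligner, the callers and the treatment of reads from CAST/EiJ alleles are not given in the sources used, and the sequences printed are of the reference. Per the labels, the libraries are separate biosamples under 1 donor identifier. Separate animals are not stated, so a p-value here reflects the spread among these 4 libraries, which may be technical.

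Peaks overlapping by at least 1 bp were merged, and sites without a peak in a library were given height 0. Promoter windows reached 1 kb to either side of every annotated start. Tests were exact two-sided sign-flip permutations over the 4 libraries. Since the lists hold no reads per site, counting intervals are not given. Named sites were the promoter sites, the 10 highest other consensus sites of each region, those called in all 4 libraries beyond 500 kb downstream, and the farthest. The genes and lists were chosen with earlier results of these data known. Lef1, Gata3, Cbfb, the other commitment factors compared in replicate 4 and the noncoding genes were named after their values were seen. Distance segments, CTCF mismatches, the REST motif, the comparison of sites of like height and the share of sites away from coding starts were added after seeing the data. Merging, scaling, counting and motif search were checked on simulated data. Python 3.11.15, numpy 2.4.6 and matplotlib 3.10.9 were used.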

Additional observations from a re-analysis of the deposited data

Results flagged for a closer look

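The footprint density of the Satb1 region was flagged because 1 library stood far from the other 3. It was 1.99 footprints per kb of peak in replicate 4, against 9.45, 8.29 and 8.55 in replicates 1, 2 and 3, so that the gap to the nearest library was 0.845 of the whole range. This passes the Dixon limit for 4 samples. Over all other peaks, replicate 4 was also lowest, at 5.81 per kb. In all, 36 values over the 4 libraries were examined in this way and 1 was flagged, and chance flags about 1 in 20.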

How the results depend on the processing

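No paired analysis was possible because all libraries belong to 1 group. The consensus counts depended on the rules. Bcl11b had 22 consensus sites with the shorter peak lists, 5 when all 4 libraries were needed, 55 when 2 were needed, 23 with 50% reciprocal overlap, 55 in replicates 1 and 2 only, and 8 when the 20647 highest peaks of every library were used. Satb1 had 15, 9, 40, 12, 34 and 8 under the same settings. Leaving out 1 replicate, with all of the others needed, gave 5 to 41 for Bcl11b and 9 to 22 for Satb1, with 41 and 22 without replicate 4. The peak density difference reversed to -0.227 with equal numbers of peaks and was 0.735 to 1.74 with 1 replicate left out. The mean promoter height of Bcl11b was 3.96 over the median of all peaks and 5.26 as deposited, that of Satb1 5.63 and 7.67, and 1.27 with the shorter lists. These scales have other units by construction. Leaving out 1 replicate, which redefines the shared sites, gave 0.715 to 2.97 for Bcl11b and 1.7 to 3.93 for Satb1. The promoter difference kept its sign under all 9 alternatives, from -2.41 to -0.579. The footprint and cut-rate differences kept their signs under every alternative run, but their sizes moved. The footprint difference was -2.7 to -1.18 for Bcl11b and -2.52 to -1.51 for Satb1, and the cut-rate difference 1.82 to 6.94 for Bcl11b and -2.82 to -1.62 for Satb1. With 1 mismatch, 3 sites of each region matched CTCF. Of 28 named sites, 16 stayed within 1 SD with the shorter lists and 0 when scaled by the median of all peaks. Replicate 4 is both the shallowest library and apart in its marker lists, and these cannot be told apart here. A site without a peak in it may still be open.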
